A study of Mus musculus with 6 samples.

Results

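The values described here belong to 409 bins of 100 kb in which 3 of 6 replication timing profiles of mouse myeloid cells scored earlier than the other 3. They were 2.68% of the 15259 bins valued on chromosomes 1, 2, 5, 7, 8, 9, 10, 11, 13, 15, 16 and 18, and they formed 81 regions with a total length of 40.9 Mb. The study measured, by whole-genome sequencing, 3 samples labelled Recql4 -/- Klhdc3 -/- and 3 labelled WT, all from myeloid cells immortalised with HoxB8, selected in GM-CSF and grown as proliferating cultures. Per the labels, a division took 15 to 18 hours and over 25% of the cells were in S phase. Recql4 encodes a RecQ helicase with a role in starting DNA replication, and Klhdc3 a substrate receptor of CUL2 ubiquitin ligases. The deposited tables hold 6 value columns without names. Here the columns are called profiles A, B and C (columns 5 to 7) and D, E and F (columns 8 to 10). No label ties a column to a sample, so neither set of 3 columns is known to be a genotype, and nothing below compares the genotypes. The sources used here do not say whether the samples of a genotype were separate clones or cultures, so any spread between profiles may be technical.

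The bins were chosen by the smoothed timing score itself. Each profile was averaged over 100-kb bins and rescaled over the bins of the 12 chromosomes (mean 0, SD 1), and a bin was kept where the lowest of A to C lay above the highest of D to F and the means of the sets differed by 0.3 or more. The separation of A to C from D to F is therefore the choice, not a finding, and no test was made of it. The mirror of the rule, later in A to C, held 518 bins (3.39% of all). The order alone, without the limit on the difference, held for 17.6% of all bins.

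In a growing culture, DNA that replicates early in S phase is present in more copies than DNA that replicates late, so sequencing depth follows the order of replication. Replication starts in clusters of origins, which appear as peaks of a timing profile, and forks moving away from them give the slopes down to valleys. Gene-rich, active chromatin is as a rule early and gene-poor chromatin late, and very long genes without nearby origins are known as sites of late replication and of fragility. A higher score below stands for earlier replication. The raw level is the deposited, unsmoothed copy level, with a median near 2 on autosomes.

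The regions held start sites of very different sequence. The 250 bases before the listed start site are given for a gene in each of 4 named regions. In each, it is the gene with the longest body among those with a sequence in the promoter table and a start site there. These regions are among the longest or the widest in difference. The stretches span CpG-rich ones and, at Olfr1109, a stretch with no CpG. The listed start site was the outer end of the gene body for 10583 of 17492 genes. That of Olfr1109, 87093395, lies inside its body, chr2:87092457-87099886. Its stretch is thus within the gene, and whether it is a promoter was not tested. The stretch of Mctp2 also lies within the gene body, and that of Nckap5 does so in part. Capitals mark each CG. The sequences are from the RefSeq table of GRCm38.p6, are written 5′ to 3′ on the strand of the gene, and lie at chr7:72306596-72306845, minus strand, for Mctp2, a membrane protein with C2 domains; chr1:126830633-126830882, minus strand, for Nckap5; chr1:157412596-157412845, minus strand, for Rasal2, a Ras GTPase-activating protein; and chr2:87093396-87093645, minus strand, for the olfactory receptor gene Olfr1109.
Mctp2: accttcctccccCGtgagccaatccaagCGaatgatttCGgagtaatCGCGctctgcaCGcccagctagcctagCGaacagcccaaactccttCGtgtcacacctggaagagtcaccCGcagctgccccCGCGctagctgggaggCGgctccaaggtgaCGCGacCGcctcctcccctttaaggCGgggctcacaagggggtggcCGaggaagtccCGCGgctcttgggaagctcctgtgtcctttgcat
Nckap5: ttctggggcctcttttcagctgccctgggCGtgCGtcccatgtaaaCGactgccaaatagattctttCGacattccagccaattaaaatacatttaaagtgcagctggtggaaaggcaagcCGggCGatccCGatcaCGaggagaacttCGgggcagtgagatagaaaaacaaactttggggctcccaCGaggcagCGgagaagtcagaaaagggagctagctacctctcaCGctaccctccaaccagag
Rasal2: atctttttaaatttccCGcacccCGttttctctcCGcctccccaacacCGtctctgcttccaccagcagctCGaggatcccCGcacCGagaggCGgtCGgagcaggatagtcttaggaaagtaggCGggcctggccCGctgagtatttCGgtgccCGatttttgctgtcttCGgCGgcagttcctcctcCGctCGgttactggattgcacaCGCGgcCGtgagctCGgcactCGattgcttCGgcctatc
Olfr1109: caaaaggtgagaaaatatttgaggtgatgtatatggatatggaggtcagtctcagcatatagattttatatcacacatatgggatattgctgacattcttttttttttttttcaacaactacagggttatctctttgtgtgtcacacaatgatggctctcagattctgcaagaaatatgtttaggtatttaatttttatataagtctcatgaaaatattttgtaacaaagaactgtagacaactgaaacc

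These stretches held 19 CG in Mctp2, 12 in Nckap5, 23 in Rasal2 and 0 in Olfr1109. Of the stretches of 265 genes that start in the member bins, 84.5% held at least 1 CG, against 85.8% of 225 in the mirror bins and 93.1% of 10547 in all bins. The motif reads the same on both strands. The median was 6 CG in the member bins, 4 in the mirror bins and 11 in all bins. With the region of the olfactory receptor cluster left out, the median of the 181 remaining member promoters was 11. The median over all members was thus lower through the genes of that region.

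Before the results, 2 features of the profiles matter. First, the windows with a value were not the same in all columns. On the 12 chromosomes, 206 of 145834 windows carried no value in A to C but one in D to F, 9 had a value in A to C and none in D to F, and 167 had other mixed patterns. Members held such a window in 8 bins (1.96%), mirror bins in 12 (2.32%) and all bins in 77 (0.505%). Second, pairs of profiles within A to C correlated across bins at r of 0.989 to 0.995, pairs within D to F at 0.983 to 0.990, and pairs between the sets at 0.965 to 0.977. These are correlations across neighbouring bins of the same genome, which are not independent, and are given as a description.

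The separation was visible in the unsmoothed level as well, which is the same measurement before smoothing and no independent check. The lowest rescaled raw level of A to C exceeded the highest of D to F in 296 of the 409 member bins (72.4%), against 12.8% of all bins. The full rule, applied to the rescaled raw level, was met by 265 members and by 5.93% of all bins. In single windows of about 10 kb the same order held in 1146 of 3809 member windows (30.1%), against 6.87% of all windows. The opposite order held in 24 member windows (0.630%), against 6.78% of all windows. As the rule used the same reads, these shares describe the members and support nothing further. Averaged over a whole region, the rescaled raw level of A to C lay above that of D to F in 76 of the 81 regions. The 5 regions without that order held Plcb2, Cyp2b19, Tenm3, Tbcd and Smad2.

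In most members the difference was near the limit of the rule. The difference of the set means had a median of 0.37 score units over the 409 bins, 91 bins reached 0.5, and 24 reached 1. The median range was 0.148 within A to C and 0.177 within D to F, close to the median of 0.206 between the lowest of A to C and the highest of D to F. The separation was wider than the range within both sets in 188 bins. In the same order of the sets, this held for 574 of all 15259 bins. At the limit, the 5 member bins with the smallest difference lay between 0.3001 and 0.3014, and the 5 ordered bins just below the limit between 0.2980 and 0.2997. The difference between members and neighbouring bins outside is therefore one of degree. Profile A was the lowest of its set in 172 members, B in 117 and C in 120. Profile D was the highest of its set in 188 members, E in 90 and F in 131.

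Across the members, A, B and C had median scores of 0.04, 0.03 and 0.03, and D, E and F had -0.49, -0.54 and -0.58. The median raw levels were 1.99, 1.98 and 1.98 in A, B and C and 1.90, 1.88 and 1.88 in D, E and F. Over all bins the 6 median scores lay between 0.12 and 0.15. Of the 409 bins, 210, 206 and 212 scored above 0 in A, B and C and 139, 124 and 125 in D, E and F. Of all 15259 bins, 8283, 8320 and 8217 did so in A, B and C and 8395, 8381 and 8356 in D, E and F.

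The flanks are described next. They hold mostly bins that did not meet the rule, and the same scores chose the regions, so a smaller difference in the flanks follows from the choice. Over the 81 regions, the median score of the region minus that of its flanks, 500 kb on either side, was 0.22, 0.22 and 0.22 in A, B and C and 0.03, -0.02 and 0.01 in D, E and F. The region scored above its flanks in 63 to 65 of the 81 regions in A to C and in 37 to 45 in D to F, a contrast that the rule favours. The difference of the set means had a median of 0.36 in the regions and 0.17 in the flanks. With each profile averaged over the flanks, the lowest of A to C lay above the highest of D to F in 52 of the 81 regions. This is an order of means, and the order in single flank bins was not counted. The regions measured 100 to 2100 kb with a median of 400 kb, 36 were 500 kb or longer, and 10 were 1 Mb or longer and held 131 of the members.

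**Figure D1:**
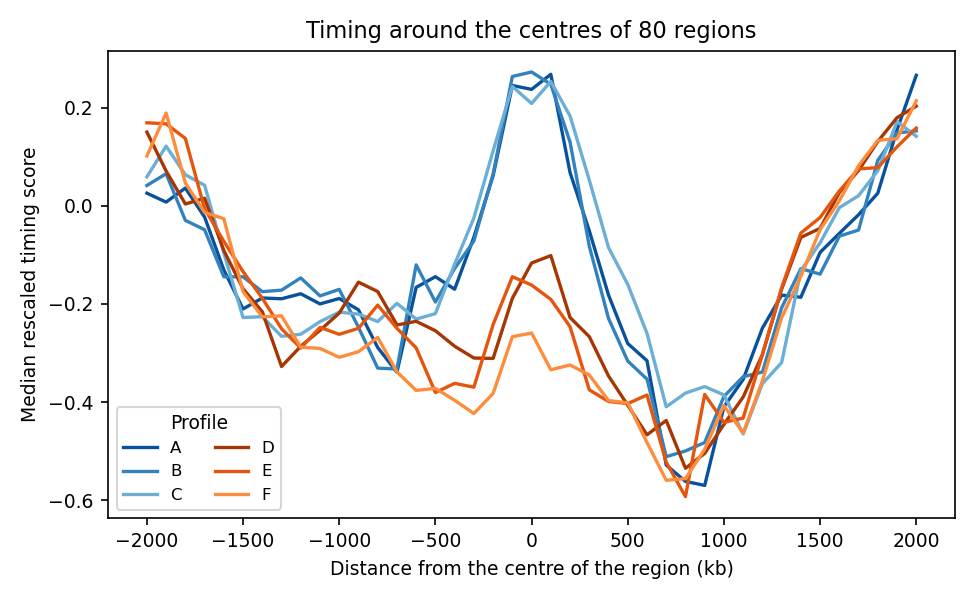
Median rescaled timing score of each profile by distance from the centre of the region in kb, over at most 80 regions (71 to 80 valued at a distance; the region with a window of very high level left out). A, B and C form a peak at the centre that D, E and F show only weakly, and the 6 lines overlap at 800 kb before and 700 kb after the centre.

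Timing peaks were found more often in A to C. A peak, taken as a local maximum that stood out by 0.25 score units or more (its prominence), lay in 34, 27 and 32 of the 81 regions in A, B and C and in 14, 10 and 12 in D, E and F. On the 12 chromosomes as a whole A, B and C had 620, 611 and 625 peaks and D, E and F had 575, 581 and 571. In 7 regions each of A to C had a peak and none of D to F did, no region showed the converse, 8 regions had a peak in all 6 profiles, and 41 had none in any. A profile that is higher than its neighbours is more likely to hold a peak, so these counts partly follow from the rule. Among the 7 were the regions of Macrod2 and Kif16b, Rasal2, Plcb2, the group of Nelfcd and Ctsz, the group of Filip1 and Col12a1, and that of Lims1, Gcc2 and Ranbp2. Plcb2 belongs to the regions without the order on the region's raw level.

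**Figure D2:**
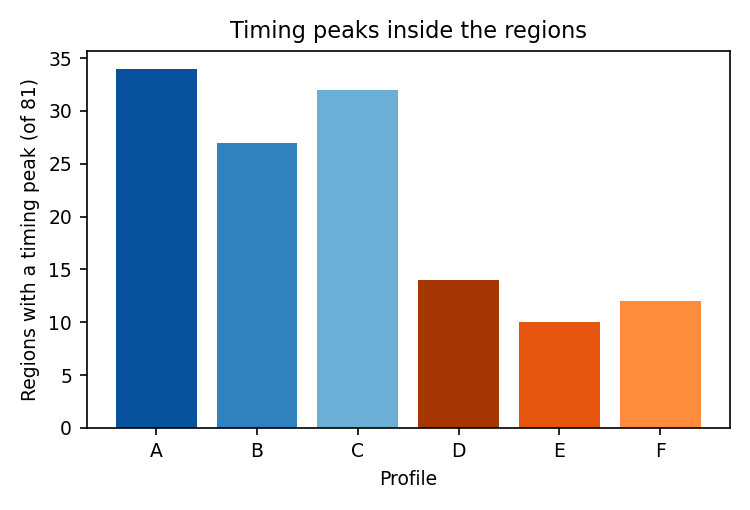
Number of the 81 regions, on the vertical axis, that hold a timing peak in each profile, on the horizontal axis. The bars of A, B and C stand at 34, 27 and 32 and those of D, E and F at 14, 10 and 12.

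On chromosome 7 the region chr7:70800001-72500000 had 17 bins and Mctp2 (chr7:72077827-72307116) as its only protein-coding gene. Scores were -0.08, -0.09 and -0.05 in A, B and C and -1.08, -0.97 and -0.79 in D, E and F. The raw levels were 1.98, 1.97 and 1.98 in A, B and C and 1.83, 1.83 and 1.85 in D, E and F. The window of widest difference, chr7:71467902-71477912, lay outside any protein-coding gene, at 0.23, 0.27 and 0.26 in A, B and C and -1.46, -1.34 and -1.13 in D, E and F. The sets lay closer in a window inside Mctp2, 541 kb after the centre of the region. There the scores were 0.30, 0.20 and 0.26 in A, B and C and -0.50, -0.27 and 0.03 in D, E and F. A mirror region lay 500 kb away. The profiles of A to C were nearly equal, with a range of 0.03 within the set. F also had a peak in the region, where its highest window stood at 0.04.

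Very long genes held several of the longest regions. Macrod2, a mono-ADP-ribosylhydrolase gene at a common fragile site (chr2:140395303-142392966), overlapped the region chr2:141600001-142800000 with Kif16b, a kinesin gene. Its scores were 0.24, 0.24 and 0.13 in A, B and C and -0.37, -0.70 and -0.74 in D, E and F. The raw levels were 2.02, 2.02 and 2.00 in A, B and C and 1.92, 1.87 and 1.86 in D, E and F, and the widest window, chr2:142158912-142168980, lay inside Macrod2. A to C each had a peak in the region, with highest windows at 0.64, 0.64 and 0.55, and D to F had none.

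Nckap5 (chr1:125913636-126830796), with the glycosyltransferase gene Mgat5 and Lypd1 in the same region chr1:125900001-127300000, showed a different order within the set. Scores were 0.48, -0.06 and -0.09 in A, B and C and -0.54, -0.61 and -0.68 in D, E and F. Profile A alone had a peak in the region, where its highest window stood at 0.95, and the range of 0.57 within A to C exceeded the separation of 0.45 between the sets. B and C were thus closer to D than to A. The flanks were earlier than the region in every profile, at 0.63, 0.55 and 0.50 in A, B and C and 0.45, 0.37 and 0.27 in D, E and F. The raw levels were 2.06, 1.98 and 1.98 in A, B and C and 1.89, 1.88 and 1.87 in D, E and F.

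Csmd1, a complement regulator gene of 1643 kb (chr8:15892538-17535385), covered the region chr8:15900001-16900000. Scores were -0.10, -0.02 and -0.14 in A, B and C and -0.37, -0.92 and -0.84 in D, E and F. Profile D lay nearer to C than to E or F, and the range within D to F, 0.55, exceeded the separation of 0.23. The raw levels were 1.98, 1.99 and 1.97 in A, B and C and 1.92, 1.84 and 1.85 in D, E and F.

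Auts2, a neurodevelopmental gene of 1106 kb (chr5:131437333-132543220), lay wholly in the region chr5:131400001-132700000. Scores were -0.69, -0.48 and -0.49 in A, B and C and -1.31, -1.33 and -0.84 in D, E and F. Here F stood between the sets, 0.16 below A, and all 6 profiles had a peak in the region. The highest windows stood at -0.23, -0.04 and 0.03 in A, B and C and -1.14, -1.16 and -0.43 in D, E and F. The region held 9 windows that were not valued in all profiles, and their part in the result was not tested. The raw levels over the shared windows were 1.89, 1.92 and 1.93 in A, B and C and 1.80, 1.78 and 1.85 in D, E and F.

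Robo1, an axon guidance receptor gene (chr16:72027518-73047491), stood for the late end of the members. The region chr16:71600001-72600000 scored -1.51, -1.50 and -1.47 in A, B and C and -1.92, -1.83 and -1.81 in D, E and F. No profile had a peak in it. Its flanks scored -1.54, -1.47 and -1.38 in A, B and C and -1.80, -1.63 and -1.75 in D, E and F. The flank means thus kept the order of the sets, but the sets lay closer than in the region, where E stood at -1.83. A second region on Robo1 and Robo2 followed at chr16:73000001-73900000 with a difference of 0.37, and its first bin lies in these flanks. The raw levels of the first region were 1.77, 1.79 and 1.81 in A, B and C and 1.72, 1.71 and 1.71 in D, E and F.

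**Figure D3:**
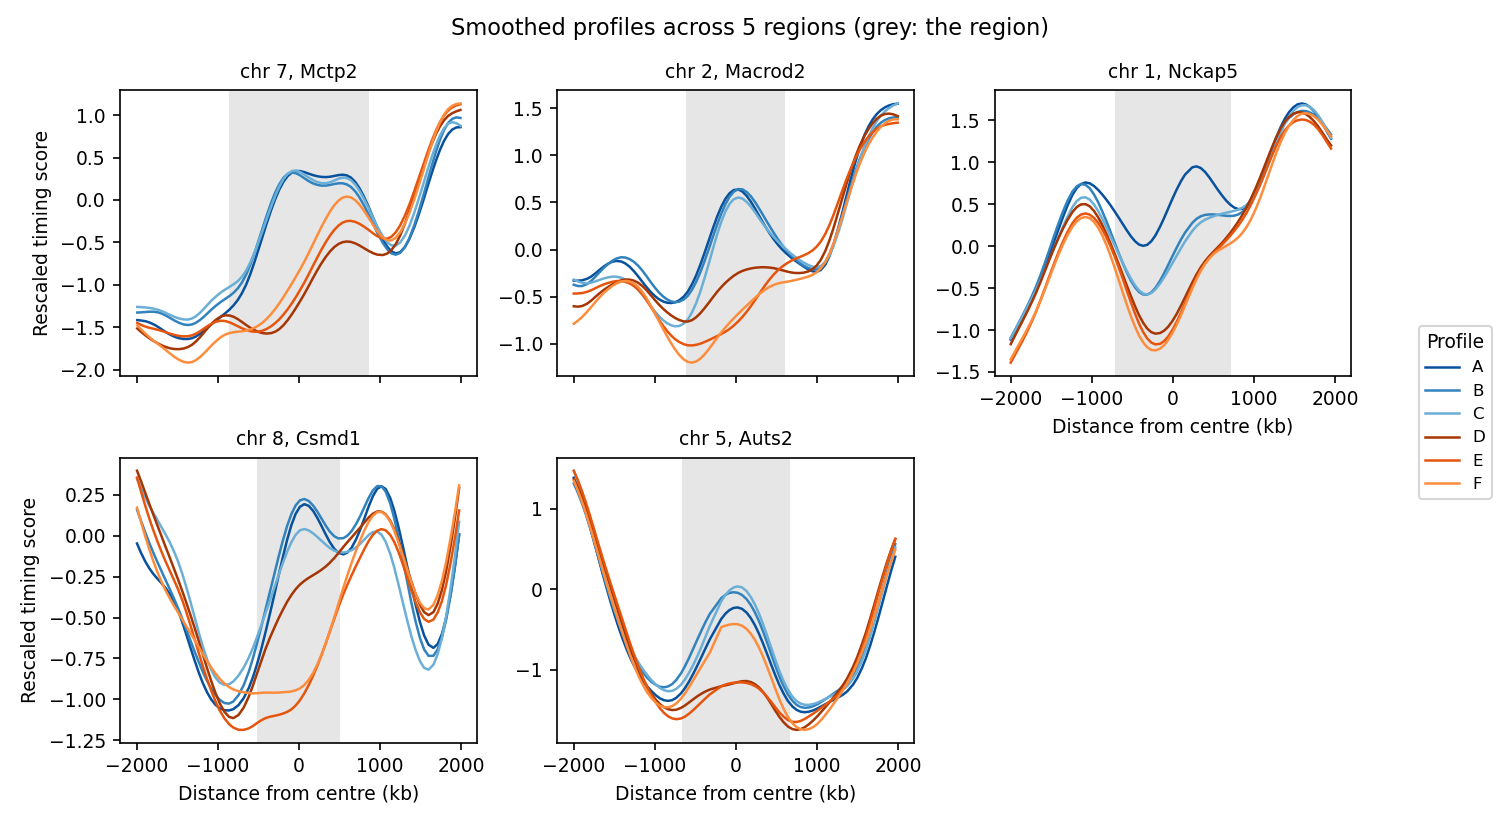
Rescaled timing score of each profile by distance from the centre of the region in kb, for 5 regions that are among both the 10 longest and the 10 with the largest difference; grey marks the region. All profiles rise over part of the grey area at Mctp2, Macrod2 and Csmd1, and A to C reach higher levels than D to F. A alone peaks at Nckap5, and F lies between the sets at Auts2.

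Further long genes with their midpoint in a member bin were Dpp10 (1514 kb), Cadm2 (966 kb), Thsd7b (946 kb), Fam155a (567 kb), Spock1 (487 kb) and Kif16b (283 kb). The bin of Dpp10, a modulator of potassium channels, scored -1.70, -1.66 and -1.72 in A, B and C and -1.90, -2.05 and -2.08 in D, E and F. The bin of Cadm2, a synaptic cell adhesion gene, scored -1.21, -1.07 and -1.10 in A, B and C and -1.66, -1.48 and -1.37 in D, E and F. Fam155a, a gene of the sodium leak channel complex, scored 0.30, 0.28 and 0.44 in A, B and C and 0.15, -0.10 and -0.71 in D, E and F. F lay farther from D there than D lay from B. Of the list of long genes of common fragile sites, 9 lay on valued bins, and 3 of the 9 (Auts2, Csmd1 and Nckap5) had their midpoint in a member bin and 0 in a mirror bin. Over all 13460 protein-coding genes, 2.37% had their midpoint in a member bin and 2.26% in a mirror bin. The list was chosen with earlier results of these data known, so these counts are only a description. Macrod2 is not among the 3, since its midpoint lies outside its region.

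Regions of ordinary gene content were among the longest as well. On chromosome 1 the region chr1:156600001-157700000, with Rasal2, the guanine exchange factor gene Ralgps2, Sec16b and 6 other genes, scored 0.44, 0.43 and 0.64 in A, B and C and 0.09, -0.02 and -0.32 in D, E and F. Its highest windows reached 1.19, 1.19 and 1.47 in A, B and C and 0.82, 1.00 and 0.97 in D, E and F. The raw levels were 2.05, 2.05 and 2.07 in A, B and C and 1.99, 1.97 and 1.92 in D, E and F. Near the end of the same chromosome, chr1:184400001-185500000, with the microtubule kinase gene Mark1, Rab3gap2 and the tRNA synthetase gene Eprs among 10 genes, scored 0.38, 0.42 and 0.53 in A, B and C and 0.03, 0.02 and 0.03 in D, E and F. Profiles D to F agreed there within 0.02, and a range of 0.15 separated A from C. The raw levels were 2.05, 2.05 and 2.06 in A, B and C and 1.97, 1.97 and 1.98 in D, E and F.

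**Figure D4:**
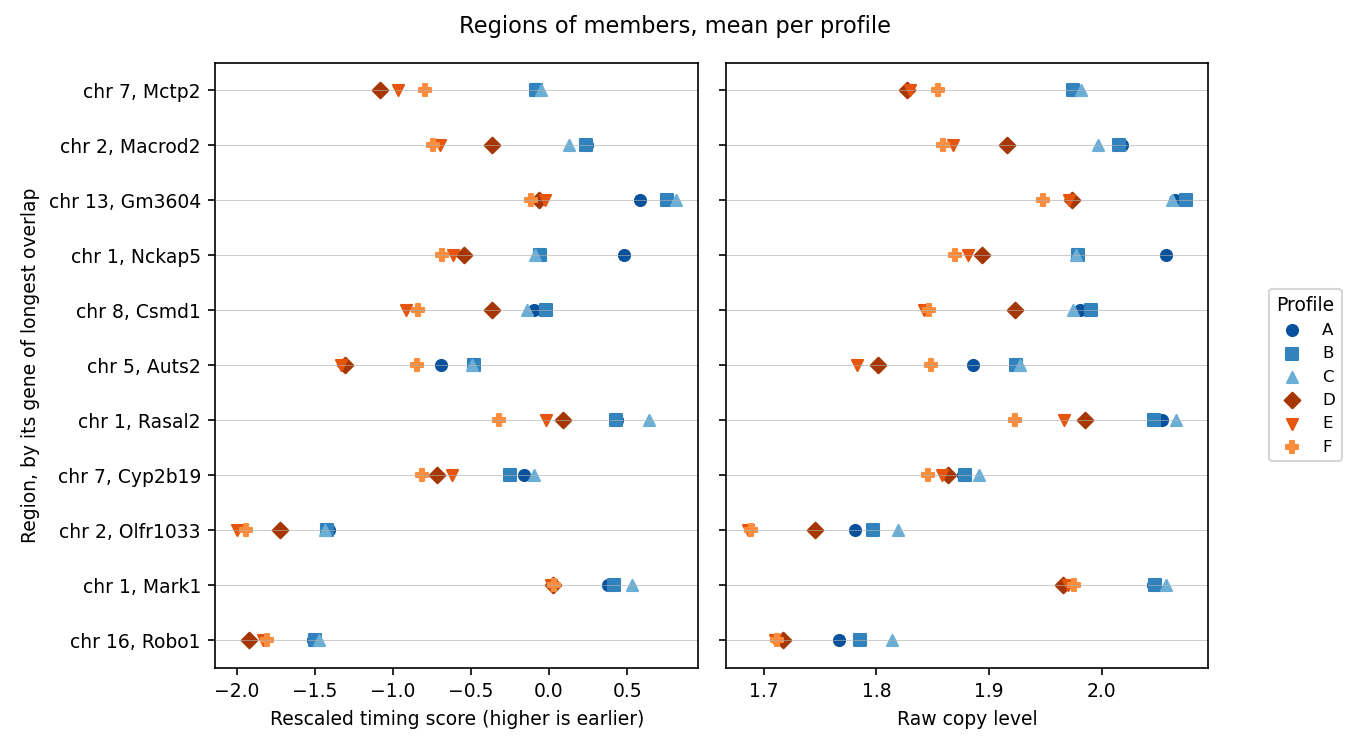
Mean rescaled timing score (left) and mean raw copy level (right) of profiles A to F in 11 named regions, 1 point per profile, ordered by the difference between the sets. Points of A to C lie to the right of D to F in every row of the left panel; on the right the distance is small at Cyp2b19, where the raw levels were 1.88 to 1.89 in A to C and 1.85 to 1.86 in D to F.

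Clusters of gene families made up other members. The longest region of all, chr2:85800001-87900000, held 101 of the 888 olfactory receptor genes on valued bins, genes expressed chiefly in sensory neurons of the nose, and also Pramel6 and Pramel7. All 101 lay in this region. It scored -1.41, -1.42 and -1.43 in A, B and C and -1.72, -2.00 and -1.94 in D, E and F. The raw levels were 1.78, 1.80 and 1.82 in A, B and C and 1.75, 1.69 and 1.69 in D, E and F, so the region was late in every profile. Of the 71 bins with an olfactory receptor gene on chromosome 2, 21 were members and 32 had the order of the sets, and no other olfactory cluster held a member. The count of 101 genes is therefore 1 stretch of the genome. In the mirror bins, 7 olfactory receptor genes were found.

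Smaller regions lay at cytochrome P450 genes of family 2, at zinc finger genes and at vomeronasal receptor genes. The region chr7:26700001-26900000 with Cyp2b19, Cyp2g1 and Cyp2a5 scored -0.16, -0.25 and -0.10 in A, B and C and -0.72, -0.62 and -0.81 in D, E and F. Its raw levels were 1.88, 1.88 and 1.89 in A, B and C and 1.86, 1.86 and 1.85 in D, E and F, it kept the order in 1 of 14 windows, and 4 of its windows were not valued in all profiles. The region chr13:62000001-62500000 with Gm3604, Zfp808 and Gm3325 scored 0.58, 0.76 and 0.81 in A, B and C and -0.07, -0.03 and -0.12 in D, E and F. Its raw levels were 2.07, 2.08 and 2.06 in A, B and C and 1.97, 1.97 and 1.95 in D, E and F, and 4 of its windows also lacked a value in part of the profiles. How unequal windows entered the smoothed scores of these regions was not tested. Windows in such families can share reads among near-identical copies, which may make their levels less certain. Whether this occurred here was not tested.

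The largest difference of all, 6.76 score units, came from 2 bins at chr13:119600001-119800000, with the chemokine gene Ccl28, the kinase gene Nim1k and the zinc finger gene Zfp131. Scores were 7.26, 7.67 and 8.55 in A, B and C and 0.81, 1.34 and 1.07 in D, E and F. The raw levels over the 17 windows valued in all profiles were 2.19, 2.18 and 2.16 in A, B and C and 2.07, 2.16 and 2.12 in D, E and F. A single window beside them, chr13:119609747-119620655, reached a raw level of 14.2 in A, 13.8 in B and 13.7 in C, and had no value in D, E and F. It was the only window with a level of 4 or more in a member bin. In the raw levels of the other windows, the lowest of A to C and the highest of D to F were both 2.16. The flanks of the region had the opposite order in the smoothed score. They scored -0.26, -0.27 and -0.59 in A, B and C and 0.05, 0.23 and 0.40 in D, E and F. A mirror region lay directly beside the region. The region is left out of the plots of timing around the centres and of the named regions, and is among the 81 regions in the plot of peaks.

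Genes of the lists of blood cell types and of replication were looked up by their midpoints. The share in member bins over all genes was 2.37%, at which lists of this size would hold about 1 gene or none, so their counts are given as a description. Kit, the stem cell factor receptor gene (chr5:75574987-75656722), was 1 of 9 stem and progenitor genes on valued bins and lay in a member. Its bin scored 1.15, 1.19 and 1.26 in A, B and C and 0.95, 0.95 and 0.72 in D, E and F. The raw level there was 2.16 in A, 2.14 in B and 2.16 in C, and 2.07 in D, 2.12 in E and 2.10 in F. Cdc45, a subunit of the replicative helicase (chr16:18780447-18811972), was 1 of 25 genes of origin licensing and firing. Its bin scored 0.93, 0.81 and 0.92 in A, B and C and 0.51, 0.52 and 0.51 in D, E and F. The raw level there was 2.08 in A, 2.07 in B and 2.04 in C, and 2.02 in D, 2.01 in E and 2.03 in F. None of the 10 neutrophil, 13 macrophage and monocyte, 9 lymphoid, 9 erythroid, 8 housekeeping, 28 Hox, 57 histone or 4 RecQ helicase genes on valued bins lay in a member. In the mirror bins stood the macrophage transcription factor gene Irf8 and 5 histone genes. Recql4 scored 1.28, 1.33 and 1.28 in A, B and C and 1.23, 1.29 and 1.45 in D, E and F, in no order of the sets, and Klhdc3 lies on chromosome 17, which was not among the 12.

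Outside the 13 named regions, 68 regions measured 100 to 900 kb and differed by 0.30 to 0.54, with a median of 0.34. Of these, 64 showed the order on the region's raw level. The regions named in this paragraph were chosen after their values were seen, to show the range of timing. Among the early ones, the region of Xrcc5, a DNA repair gene that encodes Ku80, scored 1.37, 1.37 and 1.43 in A, B and C and 1.05, 1.10 and 1.02 in D, E and F. The region of the interleukin receptor genes Il1rl1, Il1rl2 and Il18r1 scored 0.92, 0.84 and 0.90 in A, B and C and 0.82, 0.48 and 0.45 in D, E and F, with D close to B. Among the middle ones, Dscam, a neuronal adhesion gene, scored 0.21, 0.34 and 0.13 in A, B and C and -0.11, -0.11 and -0.18 in D, E and F. Opcml, another neuronal adhesion gene, scored 0.56, 0.63 and 0.57 in A, B and C and 0.25, 0.16 and 0.10 in D, E and F. Among the latest, the region of the cadherin gene Cdh19 scored -2.14, -2.15 and -2.05 in A, B and C and -2.52, -2.32 and -2.43 in D, E and F. Of the 81 regions, 33 scored above 0 in all profiles, 29 below 0 in all, and 7 above 0 in A to C and below 0 in D to F, among them those of Macrod2 and Dscam. No protein-coding gene overlapped 9 of the regions, and 351 genes overlapped the others.

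The members lay later in S phase than bins at large. With all bins ranked by the median score of the 6 profiles and cut into 5 classes of equal size, class 1 the latest, 134 of the 409 members (32.8%) fell into class 1, 82 into class 2, 95 into class 3, 61 into class 4 and 37 (9.05%) into class 5. The mirror bins were late as well, with 17.0% in class 1, 43.1% in class 2 and 1.74% in class 5. The median score also enters the rule, so these shares are a description.

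Gene content was not used by the rule. Member bins held 7.80 protein-coding genes per Mb, mirror bins 5.87 and all bins 8.82. In the 134 members of class 1 the density was 8.36 per Mb, against 1.48 in 88 mirror bins and 2.44 in all bins of that class, but without the olfactory receptor region it was 0.796 over 113 bins. Over all members without that region it was 5.57. In class 2 the densities were 2.80, 2.38 and 4.28 per Mb in member, mirror and all bins, and in class 3 they were 6.53, 11.6 and 6.76. Genes of 300 kb or more touched 86 of the 409 members, 18.1% of the mirror bins and 15.1% of all bins. Among the members the share was highest in class 2, at 42.7% of 82 members, 17.9% of 223 mirror bins and 22.8% of all bins. The 409 bins form 81 regions and 1 long gene fills several bins, so bins are not independent and no test was made over them.

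**Figure D5:**
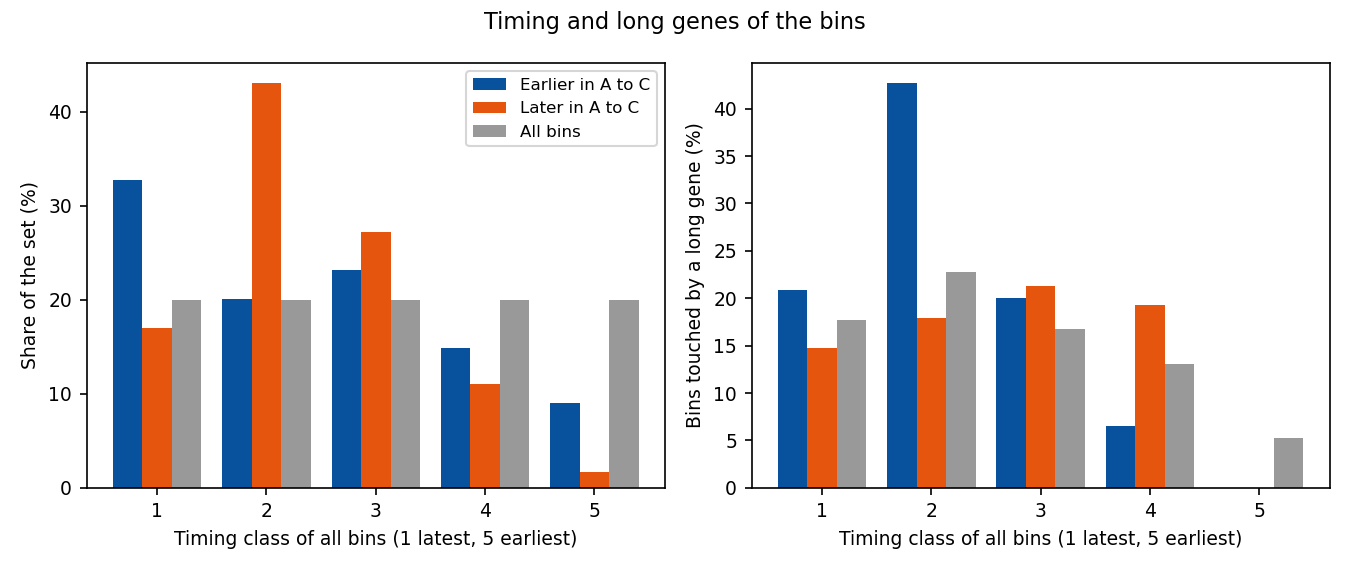
Share of each set of bins in the 5 timing classes, latest to earliest (left) and share of bins touched by a gene of 300 kb or more (right), in percent, for members (earlier in A to C), mirror bins (later in A to C) and all bins. Members stand at 32.8% in the latest class, and 42.7% of the members in the next class were touched by a long gene.

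The members were spread unevenly over the chromosomes. Chromosome 1 held 108 of them in 20 regions (5.66% of its bins), chromosome 16 held 53 (5.60%) and chromosome 2 held 67 (3.84%). Chromosome 15 held 0 of 1002 bins and 99 mirror bins (9.88%). Its mean score was -0.11, -0.11 and -0.09 in A, B and C and -0.04, -0.02 and 0.14 in D, E and F, so that the chromosome as a whole stood higher in D to F, most of all in F. With scores rescaled within each chromosome, 3 of 367 members lay on chromosome 15. The share of members was 0.571% on chromosome 18.

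Members also lay toward the distal ends. Of the 409, 47 (11.5%) lay in the last 5 Mb of the valued bins of a chromosome. The share was 0.193% in the mirror bins and 3.85% in all bins. None lay in the first 5 Mb of the valued bins, on the side of the centromere. There the share was 6.56% in the mirror bins and 3.85% in all bins. The 47 bins came from 14 regions on 8 chromosomes. Of these, 4 lay on chromosome 16, at Dyrk1a, a protein kinase gene, at Ets2, a transcription factor gene, at Dscam and at C2cd2. The region of Dyrk1a scored 1.16, 1.29 and 1.24 in A, B and C and 1.02, 1.03 and 0.45 in D, E and F, so D and E lay nearer to A to C than to F. The region of Ets2 scored -0.08, -0.14 and 0.19 in A, B and C and -0.33, -0.23 and -0.41 in D, E and F. All of the 14 regions but that of Nim1k, differed by 0.31 to 0.43.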

How the data were processed

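Sequencing depth across the genome, which follows replication timing, was measured in 6 samples, 3 Recql4 -/- Klhdc3 -/- and 3 WT. The deposited tables hold 237602 windows (median 10041 bp). One holds a copy level that the authors normalised, another unit with an autosomal median near 2; the other holds a smoothed timing score deposited by the authors. Per the submitters' processing notes, the build was mm10 and Picard 2.23.9 was used; for the aligner, the GC correction and the smoothing the sources used here give no settings. Per the labels, 30-fold coverage with paired 150-base reads was the aim, but the depth reached is unknown, so no counting interval was computed.

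Windows valued in all 6 columns were averaged into 100-kb bins by midpoint, with at least 3 windows each, and rescaled (numpy 2.4.6, pandas 2.3.3, scipy 1.17.1). Member bins were joined where at most 1 other bin lay between them. The code of the rule was tried on simulated profiles with independent noise in each bin. The real scores are smoothed across bins, so this tells nothing of wrong calls in these data. Named regions were the 10 with the most member bins and the 10 with the largest difference, 13 in all, with up to 3 genes each by overlap; the 10 longest genes and list members with a midpoint in a member bin were also named. Genes and promoters came from RefSeq tables of GRCm38.p6. Members and lists were chosen with earlier results of these data known. Columns carry no sample names, so the limma test of the genotypes that had been planned was not run, and no p-value is given. GC content of the bins was not computed because no genome was used here. No column of values was left unused. The values of 1 named region and of 1 gene list are not reported here.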

Additional observations from a re-analysis of the deposited data

How the results depend on the processing

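The members depended most on the limit and on the smoothing. With a difference of 0.2 there were 1147 members in 188 regions, and with 0.5 there were 91 in 18, when the median score of profile E was -0.97. On the rescaled raw level 905 bins in 561 regions met the rule, 265 of them members, and 77 of the 81 regions kept a bin. The median rescaled raw level of the 905 bins was 0.47 in A, 0.44 in B and 0.44 in C, and -0.017 in D, -0.045 in E and -0.0040 in F. Bins of 50 kb gave 801 members and bins of 200 kb gave 207, which cover 40.05 and 41.4 Mb. With 1 profile left out, members numbered 384 (without C) to 506 (without D) and regions 73 to 97. Without F, 323 of the 409 members still met the rule, the fewest of the 6. Scores without rescaling, quantile normalisation and rescaling within each chromosome gave 398, 405 and 367 members, of which 318, 334 and 290 were among the 409. Rescaling within chromosomes and leaving out the olfactory receptor region were chosen after the data were seen. With the rescaled raw level averaged over bins, the lowest of A to C lay 0.020 above the highest of D to F at Nim1k and 0.041 above it at Cyp2b19. Averaged over windows, as in the count of 76 regions with the order, it lay 0.035 above at Nim1k, and the value at Cyp2b19 was -0.014, the opposite order. On the raw level the separation changed by less than the SD of the 6 profile scores in 11 of the 13 named regions. No paired analysis was possible because nothing in the tables numbers the replicates. Alternatives on GC content were not run, since no genome was used here. Depth is unknown, and what it limits was not measured.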
